A study of Mus musculus with 8 samples.

Results

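The aldehyde dehydrogenases described here are 10 mouse genes, Aldh1a1, Aldh1a2, Aldh1b1, Aldh1l1, Aldh2, Aldh3a2, Aldh4a1, Aldh5a1, Aldh7a1 and Aldh9a1, followed in heart RNA of Carns transgenic (TG) and wild-type (WT) mice. They were chosen by symbol from the 18215 NCBI Gene numbers listed in the tables, with earlier results of these data known. All 10 passed the filter on low counts, which kept 12670 genes. Each group held 4 libraries of polyadenylated heart RNA. Carns encodes carnosine synthase, and the labels used here name no strain, age, promoter or founder line for the transgene, and do not say whether the libraries of a group came from separate animals. The p-values below therefore set group differences against the spread between these libraries, which may be technical.

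Aldehyde dehydrogenases oxidise aldehydes to carboxylic acids with NAD+ or NADP+, through a catalytic cysteine that forms a thiohemiacetal with the substrate. Family members differ in compartment and substrate: some clear the reactive products of lipid peroxidation, some make retinoic acid, and some close the breakdown pathways of amino acids, amines and folate. In the heart the mitochondrial enzyme ALDH2 is known for clearing 4-hydroxynonenal and other lipid-derived aldehydes. Carnosine is a histidyl dipeptide that can itself form adducts with such aldehydes, so the transcripts of the enzymes that oxidise them are a comparison of interest in this design.

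The reading frame around the catalytic cysteine codon shows how alike the members are at the active site. The windows below are from GENCODE M21 transcripts (build GRCm38) matched by the RefSeq accession in the deposited tables. Each has 33 bases with the cysteine codon in capitals, and the PROSITE pattern for this active site was found once in 9 of the 10 members and not in Aldh7a1. The missed match does not show that Aldh7a1 lacks the cysteine.
Aldh2: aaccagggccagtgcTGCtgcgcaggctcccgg
Aldh1b1: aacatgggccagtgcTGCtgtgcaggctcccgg
Aldh1a1: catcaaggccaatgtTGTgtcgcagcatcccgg
Aldh4a1: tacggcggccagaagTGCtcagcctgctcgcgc
Aldh3a2: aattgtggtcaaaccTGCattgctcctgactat
Aldh5a1: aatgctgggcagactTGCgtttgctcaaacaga
The Aldh2 window lies in exon 9, on the minus strand at chr5:121572787-121572819. The Aldh1b1 window lies in exon 2, on the plus strand at chr4:45803409-45803441. Aldh1b1 had the same base as Aldh2 at 30 of the 33 positions, Aldh1a1 at 23, Aldh4a1 at 20, Aldh3a2 at 13 and Aldh5a1 at 12. Of the members whose windows are not printed, Aldh1a2 had the same base at 27 positions, Aldh1l1 at 19 and Aldh9a1 at 19. Over whole coding sequences the 45 pairs of members were 54.8% to 70.2% identical, and Aldh2 with Aldh1b1 was the closest pair.

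The counts of Aldh1a1 depend on how its reads were told apart from those of Aldh1a7, a paralog whose coding sequence is 91.6% identical to that of Aldh1a1, with 126 of 1503 bases different and a longest identical run of 100 bases. A stretch of 90 bases around the catalytic codon, in exon 9 of both genes, is shown because the genes differ there at many bases, and no 50-base word that they share lies within it. Capitals mark the 17 bases of Aldh1a7 that differ from Aldh1a1.
Aldh1a1: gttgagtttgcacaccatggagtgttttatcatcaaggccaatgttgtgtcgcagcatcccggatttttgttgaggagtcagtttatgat
Aldh1a7: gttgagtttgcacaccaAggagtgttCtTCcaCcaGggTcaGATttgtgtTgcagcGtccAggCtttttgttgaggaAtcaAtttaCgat
These lie at chr19:20630677-20630766 on the plus strand and chr19:20708234-20708323 on the minus strand. Of the 50-base words in the Aldh1a1 coding sequence, 10.4% also occurred in Aldh1a7. The deposited counts of Aldh1a1 were not whole in 6 libraries, and they were within 0.22 of a count of a whole number in all 8. The other 9 members had whole counts in every library. No 50-base word of Aldh1a2, Aldh1b1, Aldh2, Aldh3a2, Aldh7a1 or Aldh9a1 occurred in a transcript of another gene. Aldh4a1 shared 90.4% of its words with Gm21969, a same-strand gene model that no library listed. Aldh5a1 shared 25.0% with the opposite-strand RNAs 4932702P03Rik, listed at 26 to 37 counts against 247 to 415 for Aldh5a1, and 9330162012Rik, listed at 4 to 23. Aldh1l1 shared 2.30% with the antisense model Gm15756. Exons of Aldh2 and Aldh7a1 overlap opposite-strand exons of Gm42879 and Phax outside these words. The use of strand in the counting was not given in the sources used here, so reads from these overlaps cannot be told apart.

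The libraries totalled 6261193 to 7897629 expected counts. They fell into 4 with more than 7000000 counts, TG replicates 1 and 3 and WT replicates 1 and 2, and 4 with fewer, TG replicates 2 and 4 and WT replicates 3 and 4. These are called deeper and shallower below. The labels do not say what else sets them apart, so depth cannot be told from an unrecorded difference between the libraries. Carns1, in CPM (counts per 1000000, scaled by TMM), averaged 20812 ± 2454 over the TG libraries and 62.6 ± 12.5 over the WT libraries (SD, n = 4 per group), with no overlap. Ventricular muscle markers were detected at 10 of 10 in every library, with a summed FPKM (fragments per kilobase of transcript and per 1000000 fragments) of 47768 to 55053. TG replicate 2 stood apart in fat and atrial markers: its adipocyte markers summed to 795 FPKM against 54.4 to 85.4 in the other 7 libraries, and its atrial markers to 1190 against 71.8 to 332. In bulk tissue, fewer cells of a type and less RNA per cell cannot be told apart.

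Per unit of length, Aldh2 was the most abundant member in every library, at 97.1 ± 10.8 FPKM (SD, n = 8) and 752nd of 18215 genes by mean FPKM. Aldh4a1 was second in every library at 46.8 ± 3.3 FPKM. The next 7 members lay much lower and close together, in the order Aldh7a1 (13.0 FPKM), Aldh9a1 (11.4), Aldh1a1 (10.8), Aldh3a2 (9.93), Aldh5a1 (8.71), Aldh1b1 (6.71) and Aldh1a2 (6.71). Neighbours among these 7 overlapped in their range over the libraries, so the order of neighbours is not resolved. Some members farther apart did not overlap. The lowest value of Aldh7a1, 11.27, lay above the highest of Aldh3a2 (11.07), Aldh5a1 (10.06), Aldh1b1 (10.14) and Aldh1a2 (7.65). That of Aldh9a1, 10.2, lay above the highest of Aldh5a1, Aldh1b1 and Aldh1a2. Aldh7a1 overlapped Aldh9a1 and Aldh1a1. Aldh1a1 had the widest range of the 7 in absolute FPKM, from 6.21 to 16.5. Aldh1l1 was lowest at 1.73 ± 0.78 FPKM, and its highest value, 3.06, was below the lowest of Aldh1a2, 4.63. The 10 members summed to 211 to 223 FPKM in TG and 188 to 228 in WT. Aldh2 alone made up 41.9% to 48.3% of that sum in the 8 libraries.

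**Figure D1:**
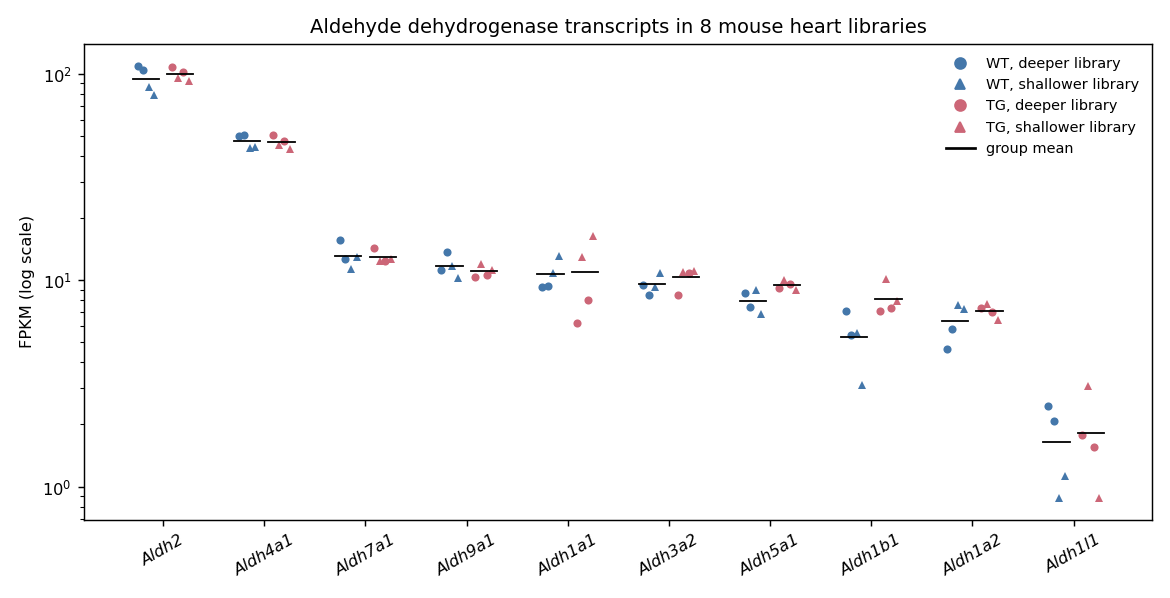
FPKM of the 10 aldehyde dehydrogenases on a log axis, 1 point per library (WT blue, TG red; circles for the deeper and triangles for the shallower libraries), with group means as black lines. Aldh2 and Aldh4a1 lie above the other 8 in every library, and the TG and WT points overlap for all but 2: Aldh1b1, at 3.10 to 7.10 FPKM in WT and 7.11 to 10.1 in TG, and Aldh5a1, at 6.87 to 8.92 in WT and 8.97 to 10.1 in TG. On this scale 2.83% of tested genes do not overlap.

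None of the 10 members passed the threshold between TG and WT. By edgeR's quasi-likelihood test with Benjamini-Hochberg adjustment over 12670 genes, each had an adjusted p of 1.0, and DESeq2 also called 0 of 10. Across all genes, 2 passed by edgeR (0.0158%), 1 higher and 1 lower in TG (0.00789% each), and 0.118% passed by DESeq2. At an unadjusted p under 0.05 stood 1 of the 10 members, Aldh1b1, against 3.49% of all tested genes, or 1.53% with TG higher. A total of 7 members had a positive and 3 a negative log2 fold change, against 49.5% positive among all tested genes. The median over the members was 0.09 on the log2 scale and over all tested genes -0.00.

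**Figure D2:**
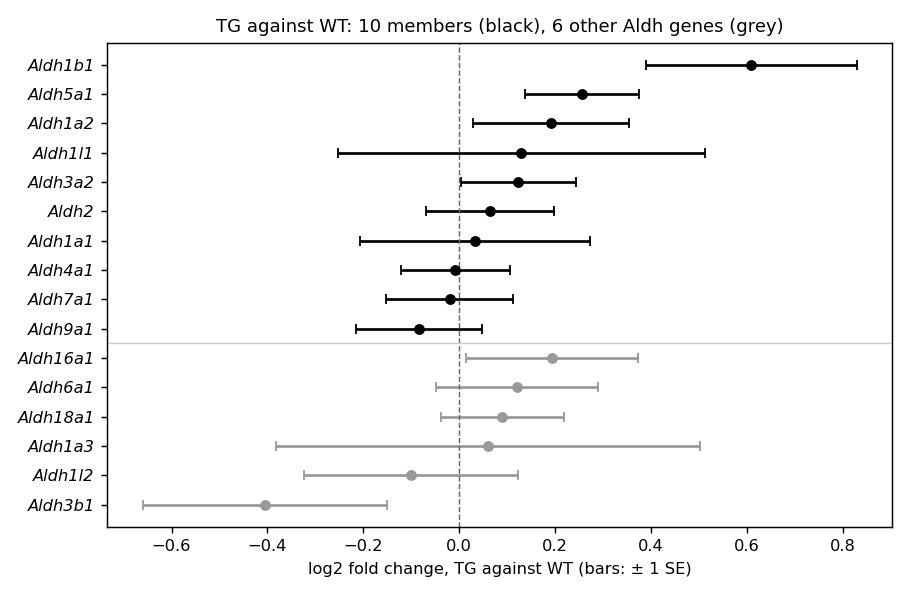
Log2 fold change of TG against WT for the 10 members (black) and the 6 other tested Aldh genes (grey), with bars of 1 SE from the edgeR fit. Aldh1b1 lies farthest from 0 at 0.61, and none of the 16 genes passed the adjusted threshold.

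Among the mitochondrial enzymes of broad substrate range, Aldh2 stood at 325, 329, 258 and 222 CPM in WT replicates 1 to 4 and at 326, 288, 307 and 264 CPM in TG replicates 1 to 4. The groups overlapped, with the lowest value in WT replicate 4 and the highest in WT replicate 2. The log2 fold change was 0.06 (SE 0.13). Aldh2 is listed with a pair of RefSeq transcripts, and its deposited length, which is weighted over them, averaged 2937 ± 45 bases for TG against 2953 ± 46 for WT (SD, n = 4 per group). That difference was within the spread (exact two-sided permutation p = 0.629, 0.629 adjusted over the 2 genes so tested, where 0.0286 is the smallest p that 4 against 4 can give).

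Aldh1b1, which also oxidises acetaldehyde and other short aldehydes in mitochondria and is encoded largely in 1 exon, stood at 16.5, 13.2, 12.6 and 6.88 CPM in WT replicates 1 to 4. In TG replicates 1 to 4 it stood at 17.0, 23.3, 17.5 and 17.8 CPM. Every TG value lay above every WT value, though the gap between WT replicate 1 and TG replicate 1 was small. Groups that do not overlap with TG higher were found in 1.23% of tested genes, with TG lower in 1.29% and in either direction in 2.53%. The mean was 18.9 ± 3.0 CPM for TG against 12.3 ± 4.0 for WT (SD, n = 4 per group), a log2 fold change of 0.61 (SE 0.22, edgeR unadjusted p = 0.016, adjusted p = 1.0). The size of the difference depended on the libraries at the ends of the range. Without WT replicate 4 it was 0.42, and without TG replicate 2, the library high in fat and atrial markers, 0.50 (edgeR unadjusted p = 0.031 and 0.055). Within the deeper libraries it was 0.21 and within the shallower 1.07.

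The cytosolic enzymes that make retinoic acid from retinaldehyde are Aldh1a1 and Aldh1a2. Aldh1a1 stood at 18.9, 20.05, 21.8 and 25.7 CPM in WT replicates 1 to 4 and at 13.0, 26.2, 16.8 and 32.7 CPM in TG replicates 1 to 4. The TG values lay on both sides of the WT values, and the log2 fold change was 0.03 (SE 0.24). Adding the Aldh1a7 counts, a step chosen after the values were seen, gave 0.10 (SE 0.25).

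Aldh1a2, the main retinaldehyde dehydrogenase of the embryonic heart and of the epicardium, stood at 10.6, 13.8, 17.0 and 15.9 CPM in WT and at 17.2, 17.3, 16.4 and 14.3 CPM in TG. WT replicate 1 was lowest, and the groups overlapped (log2 fold change 0.19, SE 0.16). Without WT replicate 1 the log2 fold change was 0.07, within the deeper libraries 0.47 and within the shallower -0.06. Epicardial and mesothelial markers, of which 9 of 10 were listed (all but Muc16), summed to 41.1, 42.4, 18.2 and 27.5 FPKM in WT and to 35.4, 31.9, 27.1 and 22.0 FPKM in TG. WT replicate 1, lowest in Aldh1a2, had the second highest epicardial sum. The part of these markers in the Aldh1a2 values was not tested.

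Aldh3a2, the fatty aldehyde dehydrogenase of the endoplasmic reticulum, varied least of all members with Aldh4a1. It stood at 30.8, 28.8, 29.5 and 33.6 CPM in WT and at 28.3, 34.9, 35.7 and 34.8 CPM in TG. TG replicates 2 to 4 lay above all WT libraries and TG replicate 1 lay below them all. The log2 fold change was 0.12 (SE 0.12).

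Among the enzymes of amino acid and amine breakdown, Aldh4a1 converts the proline product glutamate semialdehyde to glutamate. It stood at 171, 180, 145 and 143 CPM in WT and at 176, 151, 165 and 142 CPM in TG. The groups covered the same range, with a log2 fold change of -0.01 (SE 0.11).

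Aldh5a1, succinic semialdehyde dehydrogenase, closes the breakdown of gamma-aminobutyrate, a substrate that carnosine synthase can also use. It stood at 49.7, 44.7, 50.4 and 37.8 CPM in WT and at 54.1, 57.3, 56.7 and 50.1 CPM in TG. TG replicates 1 to 3 lay above all WT values, and TG replicate 4 lay just below WT replicate 3. In FPKM, which is not scaled by TMM, TG replicate 4 at 8.97 lay just above WT replicate 3 at 8.92. The groups thus did not overlap on that scale, by this small gap. The TMM factors of these libraries were 1.029 and 1.017. In FPKM 1.1% of tested genes did not overlap with TG higher, and 2.83% in either direction. The log2 fold change was 0.26 (SE 0.12, edgeR unadjusted p = 0.052, adjusted p = 1.0).

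Aldh7a1, the lysine pathway enzyme that oxidises aminoadipate semialdehyde and also betaine aldehyde, stood at 48.9, 41.1, 34.1 and 38.4 CPM in WT and at 45.3, 37.6, 39.3 and 38.2 CPM in TG. The TG values lay inside the WT range (log2 fold change -0.02, SE 0.13). It too is listed with a pair of transcripts, and its weighted length averaged 3049 ± 32 bases for TG against 3067 ± 15 for WT (SD, n = 4 per group; exact two-sided permutation p = 0.343, 0.629 adjusted over the 2 genes).

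Aldh9a1 oxidises trimethylaminobutyraldehyde in carnitine synthesis and can form gamma-aminobutyrate from aminobutyraldehyde. It stood at 32.2, 41.1, 33.1 and 28.0 CPM in WT and at 30.5, 33.9, 31.0 and 31.3 CPM in TG. Here too TG lay inside the WT range, whose top was WT replicate 2, and the log2 fold change of -0.08 (SE 0.13) became 0.03 without that library.

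Aldh1l1, the cytosolic 10-formyltetrahydrofolate dehydrogenase of folate metabolism, was the least abundant and the most variable member. It stood at 7.73, 6.82, 2.71 and 3.36 CPM in WT and at 5.74, 9.52, 5.0 and 2.67 CPM in TG, from 18 to 60 counts per library. The groups overlapped (log2 fold change 0.13, SE 0.38). Its sign rested on single libraries: the log2 fold change was -0.21 without TG replicate 2, -0.08 without WT replicate 3, -0.03 without WT replicate 4 and 0.40 without WT replicate 1.

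The depth class of a library went with several members more than its group did. Between deeper and shallower libraries, a comparison chosen after the values were seen and fitted with group in the model, 3 of the 10 members passed by edgeR with Benjamini-Hochberg adjustment, as did 32.2% of all tested genes. Aldh2 was at 307 to 329 CPM in the 4 deeper libraries and 222 to 288 in the 4 shallower (log2 difference 0.32, SE 0.08, edgeR adjusted p = 0.0094). Aldh4a1 was at 165 to 180 CPM in the deeper and 142 to 151 in the shallower (0.25, SE 0.06, edgeR adjusted p = 0.012). Aldh1a1 went the other way, at 13.0 to 20.05 CPM in the deeper and 21.8 to 32.7 in the shallower (log2 difference -0.63, SE 0.15, edgeR adjusted p = 0.0085). With Aldh7a1, at 39.3 to 48.9 and 34.1 to 38.4 CPM, 4 of 10 members did not overlap between the depth classes, against 29.9% of tested genes. Both shares of members are near those of all genes and are no result about the family. Among all genes, 14.4% were higher and 17.8% lower in the deeper libraries. Some cell type markers, in FPKM, also did not overlap between the depth classes. In CPM 29.9% of all tested genes did not, and the share in FPKM was not computed. Of the 10 fibroblast markers, 7 were lower in every deeper than in every shallower library and 0 were higher, among them Dcn (165 to 193 against 232 to 339 FPKM) and Lum (14.0 to 15.3 against 21.03 to 39.4 FPKM). The summed fibroblast markers, dominated by Gsn, overlapped at 1141 to 1181 and 1137 to 1559 FPKM. Of the 10 ventricular muscle markers, 4 were higher in every deeper library and 1 lower, with sums of 50974 to 55053 and 47768 to 51712 FPKM. Of other lists, 3 of 10 macrophage and dendritic markers and 1 of 10 smooth muscle and pericyte markers (Rgs5) were lower in every deeper library. Higher in every deeper library were 2 of 9 epicardial, 1 of 10 endothelial and 1 of 7 skeletal muscle markers. The atrial, adipocyte, erythroid, hepatocyte, and Schwann cell and neuron lists had no such marker in either direction. Outside the fibroblast and ventricular lists, these shares are near or under that of all genes and are no result about cell types. Aldh1a1 was lower in the deeper libraries, as were 7 of 10 fibroblast markers and some markers of other cell types, and Aldh2 and Aldh4a1 were higher. Any gene that differs by depth class lies on either side, so this is no result about cell types. The part of these markers in the members' values was not tested.

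Within depth classes, where each group has 2 libraries, Aldh1a1 was lower in TG in the deeper libraries (13.0 and 16.8 against 18.9 and 20.05 CPM, log2 fold change -0.39) and higher in the shallower (26.2 and 32.7 against 21.8 and 25.7 CPM, 0.31). Aldh1l1 had the same signs, with a log2 fold change of -0.44 in the deeper and 0.99 in the shallower libraries, the latter from 9.52 CPM for TG replicate 2 and 2.67 for TG replicate 4. In a test of the difference between the depth classes, Aldh1a1, Aldh1b1 and Aldh1l1 had an unadjusted p under 0.05 (edgeR, 0.013, 0.024 and 0.036; adjusted p = 0.911, 0.937 and 0.964), as did 4.93% of all genes. After adjustment 0 of the 12670 genes passed. With the depth class as a term in the model, the log2 fold change of Aldh1b1 was 0.61 and that of Aldh5a1 0.26 (edgeR adjusted p = 0.394 and 0.479).

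**Figure D3:**
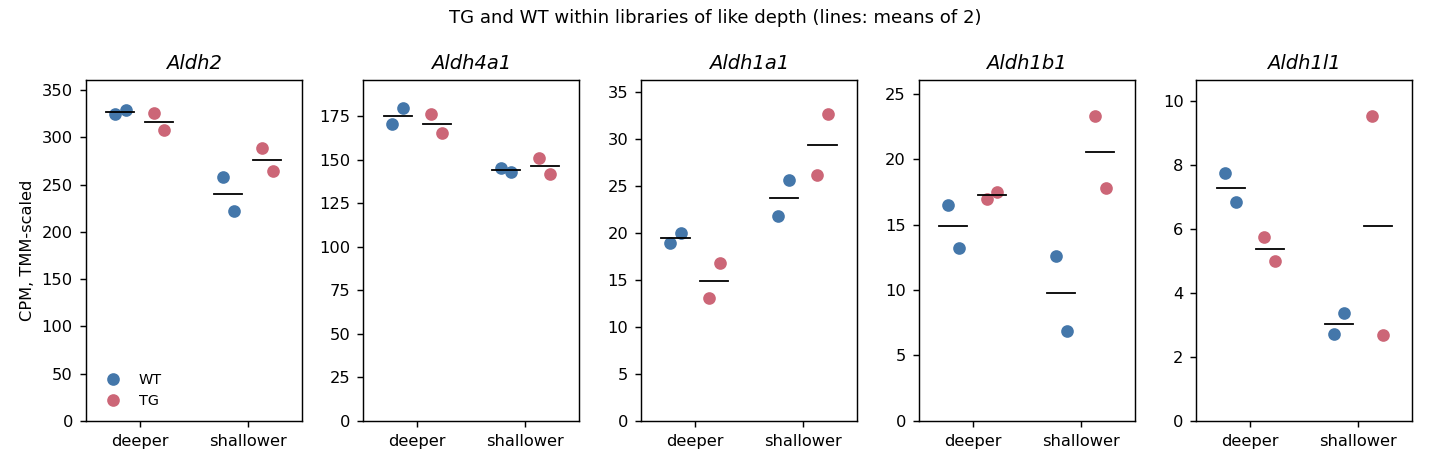
CPM of 5 members in the 4 deeper and 4 shallower libraries, WT in blue and TG in red, with lines at the means of 2 libraries and axes from 0. Aldh2 and Aldh4a1 are higher and Aldh1a1 lower in the deeper libraries of both groups, and the mean of TG lies below that of WT in the deeper and above it in the shallower libraries for each gene shown but Aldh1b1.

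**Figure D4:**
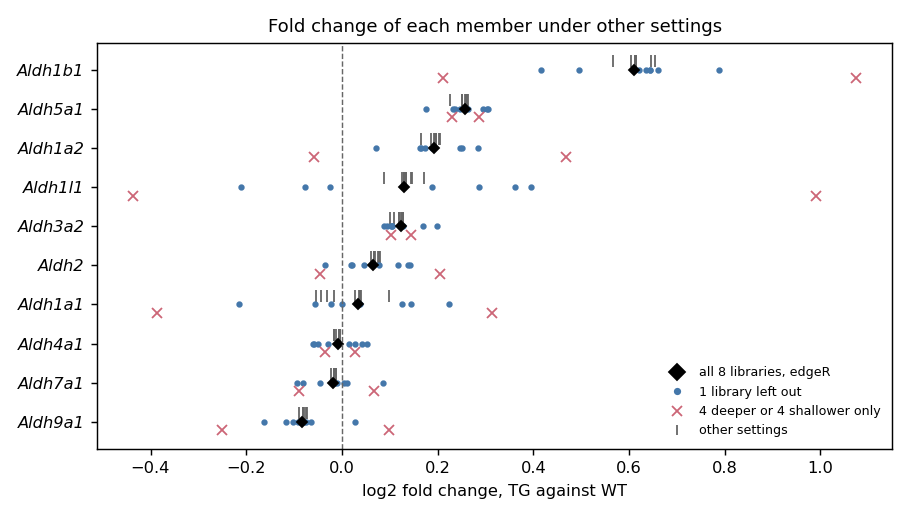
Log2 fold change of TG against WT for each member with all 8 libraries (diamonds), with 1 library left out (blue points), in the 4 deeper or 4 shallower libraries only (red crosses) and under the other settings (grey ticks). Aldh1b1, Aldh5a1 and Aldh3a2 stay above 0 in all of them, while the other 7 lie on both sides of 0.

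The 2 members with the largest SD of log2 CPM were Aldh1l1 and Aldh1b1, and the genes nearest to them in pattern were found by the root mean square difference of centred log2 CPM over the 8 libraries, among 10484 genes. Nearest to Aldh1l1 were Cyp2s1, Krt19, a keratin of mesothelial and other epithelia, and Pcx, pyruvate carboxylase, at 0.31, 0.32 and 0.34 on the log2 scale, where the median gene was at 0.64. Krt19 stood at 7.60, 8.46, 2.56 and 3.97 CPM in WT and at 7.96, 6.82, 3.48 and 2.97 in TG. Cyp2s1 stood at 8.37, 11.7, 2.71 and 5.96 CPM in WT and at 7.05, 9.36, 7.92 and 3.27 in TG. Pcx stood at 49.1, 50.9, 35.5 and 38.1 CPM in WT and at 45.8, 93.4, 43.8 and 37.0 in TG. Pcx was highest in TG replicate 2, as was Aldh1l1, while Krt19 and Cyp2s1 were highest in WT replicate 2. Nearest to Aldh1b1 were Ppl, periplakin, Cntfr, a receptor subunit for ciliary neurotrophic factor, and Agt, angiotensinogen, at 0.19, 0.20 and 0.22 against a median of 0.52. The points share the same libraries and scaling, and the likeness carries no test.

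All 11 other Aldh genes of the list were listed in at least 1 library, and 6 were tested, with 0 past the threshold, 4 positive and 2 negative, and a median log2 fold change of 0.08. Aldh6a1, methylmalonate semialdehyde dehydrogenase of valine breakdown, was the most abundant of them at 34.9 ± 7.7 FPKM (SD, n = 8), between Aldh4a1 and Aldh7a1 by its mean. It stood at 100.1, 97.5, 139 and 125 CPM in WT and at 96.8, 169, 113 and 123 CPM in TG, highest in TG replicate 2 (log2 fold change 0.12, SE 0.17). Like Aldh1a1 it was lower in the deeper libraries (edgeR adjusted p = 0.0051). Aldh16a1 stood at 17.3 ± 3.5 CPM for TG against 15.1 ± 2.6 for WT, and Aldh18a1, which makes the proline precursor from glutamate, at 16.9 ± 0.6 and 15.9 ± 1.6. Aldh1l2, the mitochondrial relative of Aldh1l1, stood at 6.31 ± 0.85 and 6.77 ± 1.80 CPM, Aldh3b1 at 3.76 ± 0.70 and 4.99 ± 1.46, and the retinaldehyde dehydrogenase Aldh1a3 at 1.85 ± 1.15 and 1.76 ± 0.71 (SD, n = 4 each, TG first). Aldh3b1 shares 13.2% of its 50-base words with Aldh3b2 and Aldh3b3 and its counts were not whole in every library, and Aldh6a1, Aldh16a1 and Aldh1l2 overlap exons of the opposite-strand genes Bbof1, Pih1d1 and D10Wsu102e, so these values are less certain.

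Of the 5 Aldh genes that were not tested, Aldh3a1 stood at 0.28 to 2.97 CPM, highest in TG replicate 4. Aldh3b3 and Aldh8a1 reached at most 0.32 and 0.16 CPM, under the floor that 3 counts set in each library (0.380 to 0.479 CPM, for counting error only). Aldh1a7 reached 4.76 CPM in TG replicate 2, while no other library exceeded 0.31. Aldh3b2, which shares 36.5% of its 50-base words with Aldh3b1 and Aldh3b3, reached 1.27 CPM in TG replicate 2, while no other library exceeded 0.15. In the same library the fat markers Adipoq, Cidec and Ucp1 stood at 56.3, 49.0 and 75.8 FPKM, against at most 2.62, 3.14 and 0.23 in the others. Its atrial markers summed to 1190 FPKM, against at most 332 in the others. The part of the fat and atrial markers in the Aldh1a7 and Aldh3b2 values was not tested.

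The pathways that feed these enzymes or compete with them were followed as 5 lists, in which no member passed the threshold (0.0158% of all genes did). Of the enzymes that reduce or conjugate aldehydes, 21 of 28 were tested, 11 with a positive and 10 with a negative log2 fold change and a median of 0.01. The glutathione transferase Gstm1 was the most abundant, at 502 ± 69 CPM for TG against 498 ± 61 for WT. Aox1, aldehyde oxidase, stood at 29.7 ± 2.3 and 22.8 ± 6.2, and the alcohol dehydrogenase Adh1 at 37.98 ± 12.05 and 28.1 ± 5.4 (SD, n = 4 per group).

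Of the genes of retinoic acid synthesis and response, 17 of 28 were tested, 7 positive and 10 negative, with a median of -0.02. Transglutaminase Tgm2, a retinoid-responsive gene, stood at 526 ± 51 CPM for TG against 483 ± 38 for WT. Dhrs3, which reduces retinaldehyde back to retinol and so acts against Aldh1a1 and Aldh1a2, stood at 119 ± 13 and 142 ± 9 (log2 fold change -0.25, SE 0.11). Rarres2 stood at 42.4 ± 9.6 and 52.8 ± 18.5 (SD, n = 4 per group). Both were named as the 2 genes of their list with the smallest p (edgeR unadjusted p = 0.036 for Dhrs3 and 0.201 for Rarres2). Neither passed after adjustment.

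Of the genes of proline, gamma-aminobutyrate, beta-alanine and lysine breakdown, 14 of 22 were tested, 8 positive and 6 negative, with a median of 0.05. Got2, mitochondrial aspartate aminotransferase, was at 1458 ± 157 CPM for TG against 1521 ± 159 for WT. Abat, which makes the substrate of Aldh5a1, was at 9.91 ± 1.75 and 13.1 ± 2.2 (SD, n = 4 per group; log2 fold change -0.40, SE 0.18). It was named for its small p (edgeR unadjusted p = 0.040) and did not pass after adjustment.

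Around Aldh9a1, 7 of 8 genes of carnitine synthesis and transport were tested, 4 positive and 3 negative, with a median of 0.01. The carnitine-acylcarnitine carrier Slc25a20 was at 215 ± 30 CPM for TG against 193 ± 17 for WT, and the carnitine importer Slc22a5 at 30.3 ± 4.1 and 33.6 ± 3.1 (SD, n = 4 per group). Around Aldh1l1, 16 of 19 genes of folate one-carbon metabolism were tested, 7 positive and 9 negative, with a median of -0.05. Gcsh, a glycine cleavage protein, was at 55.8 ± 4.4 CPM for TG against 55.96 ± 4.54 for WT, Mthfs, which acts on 5-formyltetrahydrofolate, at 4.54 ± 1.66 and 2.90 ± 0.75, and methionine synthase Mtr at 54.8 ± 7.8 and 45.9 ± 6.3 (SD, n = 4 per group).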

How the data were processed

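The 4 TG and 4 WT heart libraries were grouped by sample title. Per the file headers, the deposited tables hold expected counts and FPKM for NCBI Gene numbers. The expected counts, as deposited by the authors, are estimates that need not be whole and are not normalized. The FPKM values were deposited by the authors per kilobase and per 1000000 fragments. The submitters' processing notes name Bowtie2 and mm8, with no role or version, and the counting program was not given in the sources used here. GRCm38 sequences are therefore a description of the genes, not of the authors' alignment. Genes not listed in a library were taken as 0. Gene numbers were matched to symbols by the RefSeq gene table of GRCm38.p6 (18174 of 18215), and coding sequences came from GENCODE M21.

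Expected counts were rounded and filtered (edgeR filterByExpr, minimum count 10, minimum total 15). Genes were tested with edgeR 4.0.16 in R 4.3.3 (quasi-likelihood, two-sided) with TMM scaling, group alone as the design, and Benjamini-Hochberg adjustment over 12670 genes at a threshold of 0.05. SE is the size of the log2 fold change over the square root of its F statistic. Other settings used DESeq2 1.42.0 and limma 3.58.1 on log2(FPKM + 1) and log2(FPKM + 0.1). Fold changes on the log2(FPKM + 1) scale understate the change of low genes. Log2 CPM used a prior count of 2. The functions were tested on simulated data. The members and gene lists were chosen with earlier results of these data known. All 10 members and all listed Aldh genes are named, and from each other list the most abundant tested gene and the 2 with the smallest p. A gene that this rule names is not reported here. For the 2 members with the largest SD of log2 CPM, the 3 genes nearest in pattern are named (mean of at least 5 CPM). Genes that share sequence or exons with a member, and the fat markers, were named after their values were seen. Libraries of a group differed by more than sampling noise (chi-square at least 4.32 times its degrees of freedom in every pair).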

Additional observations from a re-analysis of the deposited data

Results flagged for a closer look

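Of 42 groups of 4 libraries checked among the Aldh genes, 8 had a library far from the other 3 by Dixon's ratio. For normally distributed values chance gives about 1 in 20, a rate that does not hold for genes with few or no counts. Aldh1b1 was highest in TG replicate 2 at 23.3 CPM, with the other 3 TG libraries at 17.0 to 17.8. Aldh3a2 was lowest in TG replicate 1 at 28.3 CPM, with the others at 34.8 to 35.7. Aldh1l2 was lowest in WT replicate 2 at 4.09 CPM, with the others at 7.49 to 7.99. Aldh1a7 was highest in TG replicate 2 at 4.76 CPM, next to at most 0.15, and in WT replicate 4 at 0.31 CPM, next to at most 0.15. Aldh3b2 was highest in TG replicate 2 at 1.27 CPM and in WT replicate 2 at 0.14, and Aldh8a1 in WT replicate 2 at 0.14. The WT values of Aldh1a7, Aldh3b2 and Aldh8a1 lie under the floor of 3 counts. For Aldh3b2 and Aldh8a1 in WT the other 3 libraries were at 0, which fixes the ratio at 1. The 8 of 42 are therefore no measure of an excess. TG replicate 2 holds 3 of the 8. Its adipocyte markers summed to 795 FPKM against at most 85.4 elsewhere, and its atrial markers to 1190 against at most 332. The part of these markers in the values was not tested.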

How the results depend on the processing

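No member passed the threshold under any of the 19 settings tried beside the main one, and Aldh1b1, Aldh3a2 and Aldh5a1 kept a positive log2 fold change in all of them (0.21 to 1.07, 0.09 to 0.20 and 0.18 to 0.31). The count of all genes past the threshold, 2 by edgeR with all 8 libraries, was 15 with DESeq2, 4 with no filter on low counts, 1 with limma at either pseudocount, 0 by edgeR with Carns1 left out (443 at an unadjusted p under 0.05), 28 with the depth class as a covariate, 59 in the deeper and 4 in the shallower libraries only, and 1 to 3 when 1 library was left out (1 without TG replicates 2 or 4 or WT replicates 2 or 3). The median log2 fold change of the members was -0.041 in the deeper libraries only, 0.175 in the shallower only and 0.030 to 0.147 when 1 library was left out. The sign of values near 0 changed. Aldh1a1 was at -0.043 and -0.054 with limma on log2(FPKM + 1) and log2(FPKM + 0.1), -0.017 with the depth covariate and -0.39 in the deeper libraries only. In the deeper libraries only, Aldh1l1 was at -0.44 and Aldh2 at -0.046, and in the shallower only Aldh1a2 was at -0.059, Aldh4a1 at 0.027, Aldh7a1 at 0.066 and Aldh9a1 at 0.099. The cause was not tested, and each such fit has 2 libraries a group. With 1 library left out, the ranges were -0.22 to 0.22 for Aldh1a1 (below 0 without TG replicates 2 or 4 or WT replicates 1 or 2), -0.21 to 0.40 for Aldh1l1 (below 0 without TG replicate 2 or WT replicates 3 or 4), -0.036 to 0.14 for Aldh2 (below 0 without WT replicate 4), -0.060 to 0.053 for Aldh4a1, -0.094 to 0.086 for Aldh7a1 (both above 0 without TG replicates 2 or 4 or WT replicate 1, and Aldh4a1 without WT replicate 2) and -0.16 to 0.027 for Aldh9a1 (above 0 without WT replicate 2).

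With the replicate number as a block 1 gene passed and Aldh1a1 was at -0.030, with no change of call among the members. The numbers are not said to pair libraries, and deviations of same-numbered libraries correlated between -0.28 and 0.40, so the block result is given here only. Aldh1l1 had the fewest counts of the members, 18 to 60 per library, and the largest SE, 0.38. The part of counting error in its spread was not tested.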
